A study of Mus musculus with 167 samples.

Results

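The genes of the cytosolic ribosomal proteins were described here across the RNA libraries of a mouse B-cell study. They were chosen by symbol, as rows named Rpl, Rplp or Rps with a number and an optional a, x or y, after any overlap suffix was removed and without pseudogenes marked ps. The rule found 75 genes among 24732 rows: 46 of the large subunit, counting the P-stalk proteins, and 29 of the small subunit. Rpsa, Fau, Gnb2l1 (Rack1) and Rps3a1, among others, also encode ribosomal proteins but have names outside the rule, and they were followed separately.

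RNA was read from 44 libraries of C57BL/6 mice in 19 groups, as polyadenylated RNA of cells sorted from bone marrow, except for pro-B cells expanded for 3 days in culture. Pax5(-/-) progenitors (n = 2) were set against Pax5(+/+) pro-B cells (n = 3), and pro-B cells labelled Eed(F/F) Rag1-cre (n = 5) against Eed(F/+) Rag1-cre (n = 3) and Eed(F/F) without Cre (n = 1). Cells homozygous for the Wapl allele deltaP1,2 were set against Wapl(+/+) as cultured pro-B cells (n = 3 and 2), sorted pre-B cells (n = 2 each) and sorted pro-B cells (n = 2 each). Wapl RNA was higher, not lower, in the deltaP1,2 libraries of all these comparisons. In immature B cells, Igh(890-inv/+) was set against its Igh(+/+) controls (n = 2 each). Igh(CBE-inv/+) and Igh(CBE/+) (n = 2 each) shared the same 3 Igh(+/+) libraries. Igh(V8-8-inv/delta890) and Igh(V8-8/delta890) (n = 2 each) shared the same 2 Igh(+/delta890) libraries, so every library of that experiment carries the delta890 allele. Sex and age are not labelled, Rag1-cre acts from the Rag1 locus in early lymphoid cells, and nothing in the labels says whether replicates came from separate mice. The p-values therefore measure only the spread between these libraries, which may be technical.

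Ribosomal proteins assemble with ribosomal RNA in the nucleolus into a small subunit, which decodes messenger RNA, and a large subunit, which joins amino acids. Their genes are among the most highly transcribed in dividing cells, their messengers usually start with a C followed by a run of pyrimidines (the 5′ terminal oligopyrimidine tract), and mTOR, with the RNA-binding protein Larp1, sets how well such messengers are translated. Pro-B and large pre-B cells divide rapidly, and small pre-B and immature B cells are mostly resting. Myc drives transcription of ribosome biogenesis genes, and Pax5 commits progenitors to the B lineage.

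Pyrimidine runs were searched at the annotated start sites of these genes. In the RefSeq promoter table (GRCm38.p6), 55 of the 75 genes had 65 annotated starts. A run of C or T of 7 bases or more was searched on the gene's strand within 15 bases on either side of the start. A run can therefore lie before the annotated start. Such a run was found at 49.2% of the starts of these genes (32 starts of 31 genes), against 18.5% of 32786 starts of other genes and 18.6% of all starts. The median longest run was 6 bases at the starts of these genes and 4 bases over all starts. The windows below are 30 bases long, read 5′ to 3′ on the gene's strand, with the longest C or T run in capitals. They are all the starts in the table of the 6 genes with the largest fold changes in Pax5(-/-) progenitors, of the 2 with the largest falls in pre-B cells and of the gene with the highest mean level.
Rps6, chr4:86857353-86857382, minus strand: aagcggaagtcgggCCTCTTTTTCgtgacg
Rpl27a, chr7:109519180-109519209, plus strand: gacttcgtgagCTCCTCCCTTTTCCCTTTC
Rps25, chr9:44407699-44407728, plus strand: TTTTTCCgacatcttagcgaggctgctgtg
Rps15a, chr7:118116133-118116162, minus strand: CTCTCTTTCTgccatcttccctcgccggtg
Rpl10a, chr17:28328456-28328485, plus strand: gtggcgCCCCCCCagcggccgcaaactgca
Rpl10a, chr17:28328550-28328579, plus strand: gCTCTatttgagcgcatgcgcaaagcgctc
Rps19, chr7:24884577-24884606, plus strand: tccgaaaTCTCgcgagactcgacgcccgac
Rps19, chr7:24884661-24884690, plus strand: ccgcacggtgagtgagggCTCTgggtcgcg
Rps19, chr7:24884898-24884927, plus strand: gagggagcggggtgtggagggCTCTCCCac
Rps2, chr17:24720048-24720077, plus strand: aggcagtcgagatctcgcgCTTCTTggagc
Rpl14, chr9:120571502-120571531, plus strand: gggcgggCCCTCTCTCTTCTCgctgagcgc
Rps9, chr7:3704026-3704055, plus strand: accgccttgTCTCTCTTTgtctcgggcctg
The run was 19 bases long at Rpl27a and 6 bases long at Rps2, below the limit of 7. At Rps19 it was 4, 4 and 7 bases long at the 3 starts, and at Rpl10a 7 and 4 bases. A run is a description of the letters, and the starts used in these cells were not measured.

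Levels are in TPM, transcript abundances scaled for transcript length and to a fixed total, so genes can be compared within a library. The mean over the 44 libraries was 8077 TPM for Rps9, which lines the path by which messenger RNA enters the small subunit. Rplp1 of the P-stalk, which recruits elongation factors, averaged 7716 TPM, Rps29 averaged 7059 TPM, Rpl8, near the catalytic centre, averaged 6169 TPM, and Rps20 averaged 5083 TPM. At the other end, Rps23 averaged 10.6 TPM, Rpl30 10.3 TPM, Rps27 7.8 TPM, Rpl5 1.5 TPM and Rpl26 0.0062 TPM. As background, most of these proteins are present in equal number in the ribosome. Of the 75 genes, 29 averaged 1000 TPM or more, 24 lay between 100 and 1000 TPM, and 22 lay under 100 TPM. Rpl26 was listed at 0 in all libraries except replicate 1 of the libraries labelled Eed(F/F) Rag1-cre (0.166 TPM) and replicate 2 of the cultured deltaP1,2 cells (0.108 TPM). The 10 highest genes held between 47.3% and 60.5% of the summed level of the 75 in any library.

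The listed level of a gene went with how far its coding sequence is repeated in the genome. Ribosomal protein genes have many processed pseudogenes, and each coding sequence (the longest annotated, of 74 genes with one) was cut into every window of 50 bases and searched in the NCBIM37 genome outside the gene. The median gene had 90.3% of its windows elsewhere, whereas the median was 16.7% for 29 translation factor genes and 0.0% for 41 ribosome biogenesis genes. All windows of 27 of the 74 genes occurred elsewhere. The 11 genes with under 50% of windows elsewhere had a median level of 3952 TPM (158 to 8077). They include Rpl24, whose entry of 3153 bases is by far the longest of the 74. Its percentage may therefore not describe the ribosomal protein's coding sequence alone. The 11 genes between 50% and 80% had a median of 1669 TPM (11.7 to 7716), and the 52 genes at 80% or more had a median of 162 TPM (0.0062 to 7059). Of the 22 genes under 100 TPM, 21 had 80% or more of their windows elsewhere. Across the 74 genes the Spearman correlation of mean TPM with that percentage was -0.558, and with coding length it was -0.025; both describe genes counted in the same libraries. No label states the read length or how reads with several matches were assigned, and the part of read assignment in these levels was not tested. Where a gene and its copies match, their reads cannot be told apart.

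**Figure D1:**
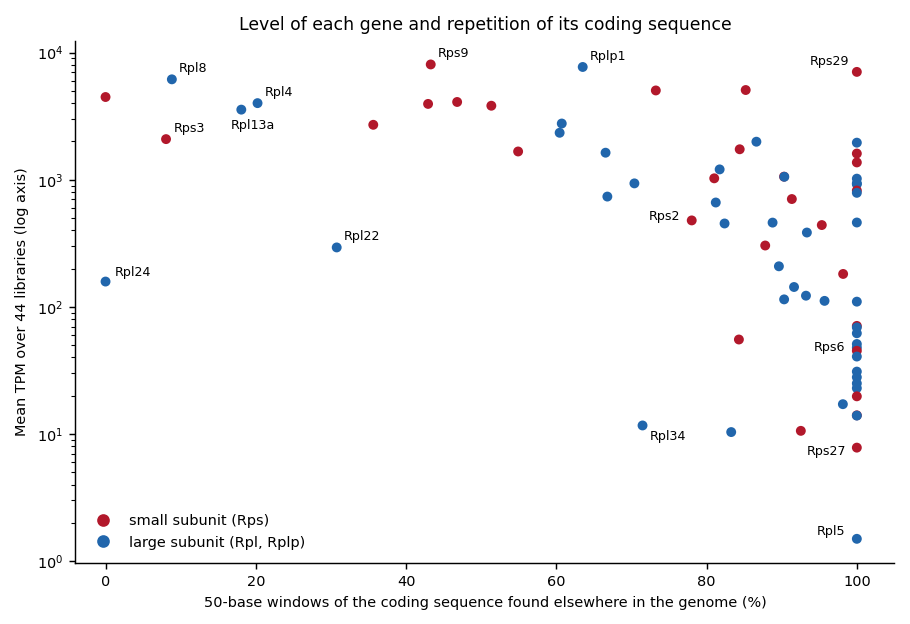
Mean TPM over 44 libraries (log axis) of each cytosolic ribosomal protein gene against the percentage of 50-base windows of its coding sequence found elsewhere in the genome, with small-subunit genes in red and large-subunit and P-stalk genes in blue. Genes with few repeated windows lie high, as Rps9 and Rpl8 do. The lowest of those under 50% is Rpl24 at 158 TPM, placed by an unusually long entry of 3153 bases. Nearly all genes under 100 TPM lie at 80% or more. Rpl41, with no coding entry, and Rpl26, under the axis, are not drawn.

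Some genes varied far more than the family. With the median of the 75 genes in each library subtracted, the SD over the 44 libraries was 0.91 on the log2 scale for Rps2, 0.76 for Rpl29, 0.76 for Rps18, 0.75 for Rps25 and 0.73 for Rps6, against 0.385 for the median gene. Rps2 ranged from 117 TPM in replicate 3 of the cultured deltaP1,2 cells to 1194 TPM in replicate 5 of the libraries labelled Eed(F/F) Rag1-cre. Replicates of 1 group could also differ. Rps18, a small-subunit protein at the bridge between the subunits, had 551, 408 and 60.0 TPM in the 3 cultured deltaP1,2 libraries and 55.4 and 304 TPM in the cultured wild-type libraries. Rps24, mutated in some human patients with Diamond-Blackfan anaemia, had 432 and 1100 TPM in wild-type pre-B cells and 538 and 1407 TPM in wild-type pro-B cells. Libraries of 1 group thus differed more than the group means did, and neither Rps18 in culture nor Rps24 between the stages passed the test.

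The libraries matched their labels in part. As a sum, the 9 markers of pre-B and immature cells rose with the labelled stage. They summed to between 154 and 1388 TPM in progenitors and pro-B cells and 7106 to 8545 TPM in pre-B cells. Immature B cells had 34644 to 44411 TPM in the CBE and V8-8 experiments, where Ighm has no value. In the 890-inv experiment, where all 9 have values, the sum was 71622 to 74014 TPM. Of the 9 markers, 8 entered the fit of the sorted Wapl libraries, without Ighm. In the Pax5, Eed and cultured fits 7 did, so the sums may not all cover the same genes. Il2ra, 1 of the 9, was at 162 to 263 TPM in pre-B cells and 13.7 to 32.7 TPM in immature B cells. Pax5 RNA was 43.0 and 39.1 TPM in Pax5(-/-) progenitors, against 342 to 391 TPM in Pax5(+/+) pro-B cells. Wapl RNA (row Wapal) was higher in every deltaP1,2 library than in the wild-type libraries of its comparison, and it was at 163 and 405 TPM in the Igh(+/+) libraries of the 890-inv experiment, against 12.7 to 40.8 TPM in the other immature B cell libraries. Eed RNA was not lower in the libraries labelled Eed(F/F) Rag1-cre (123 to 222 TPM) than in those labelled Eed(F/+) Rag1-cre (58.4 to 104 TPM) or Eed(F/F) without Cre (122 TPM), and whether the row lies in the deleted part is not given. The sum of the 11 pro-B markers did not separate the stages. It was 14268 and 14489 TPM in Wapl(+/+) pro-B cells, 9181 and 9531 TPM in Wapl(+/+) pre-B cells and 10863 to 16382 TPM in immature B cells. Myeloid markers summed to 1207 and 2436 TPM in Wapl(+/+) pro-B cells, against 49.3 to 267 TPM in Pax5(+/+) pro-B cells. In these bulk samples fewer cells of a type and less RNA per cell cannot be told apart. Each library sums to 1000000 TPM, so the values carry no depth, and depth is unknown.

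The 75 genes together took between 6.68% and 17.5% of the TPM of a library, a 2.61-fold range. By stage in wild-type or control cells, the summed share was 11.1% ± 0.878 in Pax5(+/+) pro-B cells (SD, n = 3) and 10.4% ± 0.130 in Wapl(+/+) pro-B cells (n = 2). It was 8.82% ± 0.0507 in Wapl(+/+) pre-B cells (n = 2). In the controls of immature B cells it was 9.23% ± 0.0156 in the 890-inv experiment (n = 2), 7.02% ± 0.334 in the CBE experiment (n = 3) and 8.51% ± 1.37 in the V8-8 experiment (n = 2). Control groups of the same stage thus differed by as much as neighbouring stages did, and the experiment cannot be told apart from the stage except within the sorted Wapl set. The small-subunit genes held between 52.0% and 61.3% of the sum in any library.

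**Figure D2:**
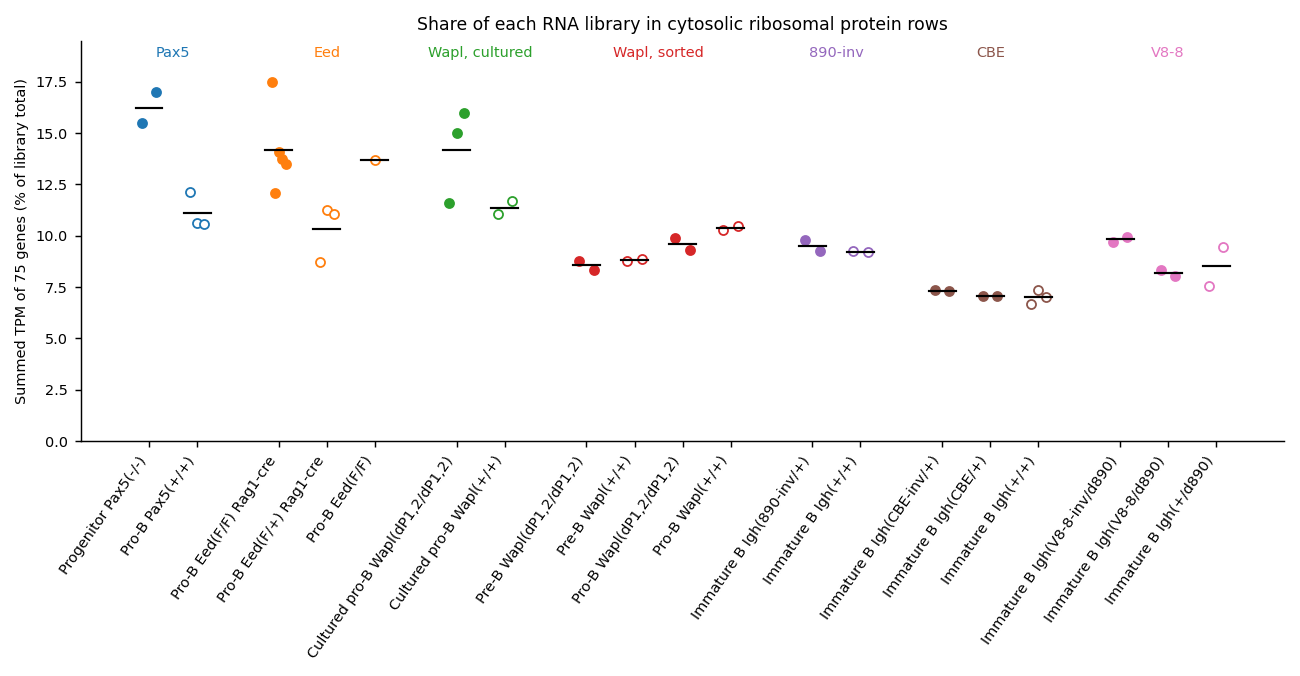
Summed TPM of the 75 genes as a percentage of the library total (y axis, from 0) for each of the 44 libraries, by experiment; filled points are mutant groups, open points are wild-type or control groups and black lines are group means. Pax5(-/-) progenitors (15.5% and 17.0%) lie above all 3 Pax5(+/+) libraries (10.6% to 12.1%), and the CBE experiment lies lowest.

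Most cytosolic ribosomal protein genes were higher in Pax5(-/-) progenitors. Their summed share was 15.5% and 17.0% of TPM in Pax5(-/-) progenitors, against 12.1%, 10.6% and 10.6% in Pax5(+/+) pro-B cells, a ratio of means of 1.46. The means were 16.2% ± 1.07 in Pax5(-/-) progenitors (SD, n = 2) and 11.1% ± 0.878 in Pax5(+/+) cells (n = 3). In the limma fit on log2(TPM + 1) over 12023 genes, 74 of the 75 passed the filter on low values (Rpl26 did not, in any fit), and 42 of the 74 were higher and 0 lower at a Benjamini-Hochberg adjusted p under 0.05. Over all genes tested 36.9% were called, 15.5% higher and 21.4% lower. The median log2 fold change was 0.49 over the 74 genes and -0.11 over all genes, and 72 of the 74 were above 0. By subunit, 20 of 29 small-subunit genes, 19 of 42 other large-subunit genes and all 3 P-stalk genes were higher. Among other genes under 1000 bases long, 19.0% were called higher, with a median of -0.05.

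The genes with the largest changes were spread over both subunits. Rps6, the substrate of the S6 kinases downstream of mTOR, had 128 and 165 TPM in Pax5(-/-) progenitors, against 91.5, 61.7 and 60.0 TPM in Pax5(+/+) pro-B cells, a log2 fold change of 1.05 ± 0.20 (SE, adjusted p = 0.00622, limma). Rps25, which some viral messengers need for initiation, had 500 and 577 TPM in Pax5(-/-) progenitors, against 406, 263 and 181 TPM in Pax5(+/+) cells (1.00 ± 0.29, adjusted p = 0.0315, limma). The groups did not overlap for either gene, both picked for their large change, and the wild-type libraries were more spread for Rps25. Rpl27a had 91.0 and 92.1 TPM in Pax5(-/-) progenitors, against 51.9, 46.5 and 55.1 TPM in Pax5(+/+) cells (0.83 ± 0.11, adjusted p = 0.00138, limma). Rps19, the gene most often mutated in human Diamond-Blackfan anaemia, had 3736 and 4053 TPM in Pax5(-/-) progenitors, against 2673, 2661 and 1649 TPM in Pax5(+/+) cells (0.78 ± 0.22, adjusted p = 0.0269, limma). Of these, Rpl27a had the tightest replicates and Rps19 a single low wild-type library. Rps15a (0.74 ± 0.11) and Rpl10a (0.74 ± 0.12) completed the 6 largest changes, with 82.5 and 92.6 TPM for Rps15a in Pax5(-/-) progenitors against 49.9 to 55.4 TPM in Pax5(+/+) cells.

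**Figure D3:**
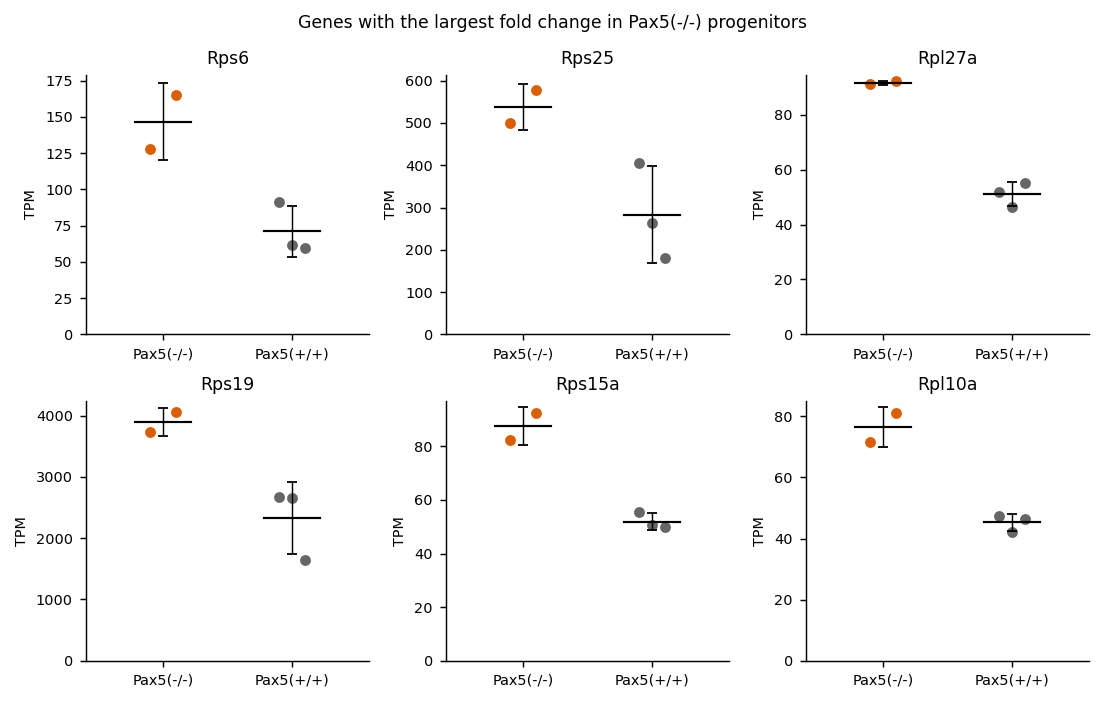
TPM (y axes from 0) of the 6 genes with the largest fold change in Pax5(-/-) progenitors (left, n = 2) and Pax5(+/+) pro-B cells (right, n = 3), with points for libraries, lines for means and bars for the SD. Each Pax5(-/-) library lies above every Pax5(+/+) library, in genes that were picked for their large change. Rps6 has 128 and 165 against at most 91.5 TPM, and Rps19 has 3736 and 4053 against at most 2673 TPM.

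Abundant genes were among those called. Higher values passed for 21 of 29 genes with a mean of 1000 TPM or more, 14 of 24 between 100 and 1000 TPM and 7 of 21 under 100 TPM. Rps9 had 11619 and 12918 TPM in Pax5(-/-) progenitors, against 9273, 8161 and 7241 TPM in Pax5(+/+) cells (0.58 ± 0.16, adjusted p = 0.0226, limma). Rplp0, the base of the P-stalk, had 4182 and 4802 TPM in Pax5(-/-) progenitors, against 3406, 2878 and 2403 TPM in Pax5(+/+) cells (0.64, adjusted p = 0.0199, limma). Rps14, whose loss in human erythroid cells is tied to a deletion syndrome, was higher by 0.70 (adjusted p = 0.00434, limma). Rpl3 of the catalytic centre rose by 0.59 (adjusted p = 0.00666, limma) and Rpl11, which with Rpl5 can bind Mdm2, rose by 0.35 (adjusted p = 0.0454, limma). Of the genes on the X chromosome, Rps4x (0.72), Rpl10 (0.50) and Rpl39 (0.47) rose, and Rpl36a did not pass (0.48, adjusted p = 0.0591, limma). Rpl22, needed for lymphocyte development in mice, had a log2 fold change of 0.40 (adjusted p = 0.191, limma) and did not pass. Rpl5, at 0.954 and 1.34 TPM in Pax5(-/-) progenitors against 2.13, 0.861 and 1.88 TPM in Pax5(+/+) cells, did not pass either.

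The lists that follow are read beside the 15.5% of all genes called higher and the 21.4% called lower in Pax5(-/-) progenitors. Of the ribosomal proteins named outside the rule, Gnb2l1 (0.56), Rps3a1 (0.47) and Rpsa (0.41) rose, and Fau did not pass (0.05). Of 29 translation factors, 7 rose and 0 fell, led by the elongation factor subunits Eef1b2 (0.79) and Eef1g (0.76) and by the poly(A)-binding protein Pabpc1 (0.53). Of 41 ribosome biogenesis genes, 9 rose, led by Wdr12 (0.71), and 1 fell (Lyar, -0.53). Of 76 mitochondrial ribosomal protein genes, 6 rose and 5 fell, with a median of -0.08. Myc averaged 488 ± 45.3 TPM in Pax5(-/-) progenitors and 208 ± 8.97 TPM in Pax5(+/+) cells (1.23, adjusted p = 0.000127, limma), while Mtor (-0.69), Eif4ebp1 (-0.54) and Tsc2 (-0.38) fell. The snoRNA hosts Snhg1 (1.07), Gas5 (0.80) and Snhg6 (0.60), whose transcripts also start with pyrimidine runs, rose, as 3 of 7 hosts. Rpl3l, the paralogue of Rpl3 used in striated muscle, fell to 2.75 ± 0.18 TPM in Pax5(-/-) progenitors, against 14.9 ± 2.3 TPM in Pax5(+/+) cells (-2.08).

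Markers moved with the genotype. The 11 pro-B markers summed to 3738 and 4160 TPM in Pax5(-/-) progenitors, against 12118 to 14828 TPM in Pax5(+/+) cells, and 7 of the 11 were called lower. The 9 T-cell markers summed to 267 and 288 TPM in Pax5(-/-) progenitors, against 120 to 134 TPM in Pax5(+/+) cells, with Lck at 197 TPM on average in Pax5(-/-) progenitors and 65.9 TPM in Pax5(+/+) cells. Of the 5 tested 3 were called higher and 1 lower, Thy1, at 8.90 TPM in Pax5(-/-) progenitors and 26.2 TPM in Pax5(+/+) cells, and Cd3e was at 0 in both Pax5(-/-) libraries. Markers of pre-B and immature cells summed to 154 and 183 TPM in Pax5(-/-) progenitors, against 378 to 462 TPM in Pax5(+/+) cells. Erythroid markers summed to 7.28 and 57.8 TPM in Pax5(-/-) progenitors, against 70.6 to 175 TPM in Pax5(+/+) cells. The 5 plasma cell markers summed to 1960 and 2153 TPM in Pax5(-/-) progenitors, against 1622 to 1956 TPM in Pax5(+/+) cells. Of the 4 tested 1 was called higher and 1 lower, with a median of -0.09. Among them Igj averaged 620.2 TPM in Pax5(-/-) progenitors and 0.495 TPM in Pax5(+/+) cells. Markers of pDC summed to 214 and 304 TPM in Pax5(-/-) progenitors, against 392 to 454 TPM in Pax5(+/+) cells. The part of these markers in the result was not tested. The count rests on both Pax5(-/-) libraries: it was 12 without replicate 1 and 4 without replicate 2 of that group. With median-of-ratios scaling 29 genes were higher and 0 lower. The shares of all genes given above belong to the main fit, so these counts cannot be read against them. Split by sequence, 15 of 22 genes with under 80% of their windows elsewhere and 27 of 51 with 80% or more were higher.

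The libraries labelled Eed(F/F) Rag1-cre had a larger summed share, but few single genes passed. Eed is a core subunit of Polycomb repressive complex 2. The share was 17.5%, 12.1%, 14.1%, 13.8% and 13.5% in Eed(F/F) Rag1-cre, against 8.71%, 11.2% and 11.1% in Eed(F/+) Rag1-cre and 13.7% in Eed(F/F) without Cre, so the groups overlapped. The mean was 14.2% ± 1.99 in Eed(F/F) Rag1-cre (SD, n = 5) and 11.2% ± 2.03 over the 4 control libraries, a ratio of 1.27. These groups are named by their labels. Eed RNA was not lower in Eed(F/F) Rag1-cre, but whether its row lies in the deleted part is not given, so it cannot check the labels. The numbers in the library titles fall into 3 series. The ratio within a series was 1.25 in the series with 3 Eed(F/F) Rag1-cre libraries and 1 control, 1.21 in the series with 1 such library and 2 controls, and 1.28 in the series with 1 such library and 1 control. With the series as a term, 6 of the 74 genes were higher and 0 lower (limma over 12338 genes). Over all genes 21.8% were called, 12.6% higher and 9.17% lower, so the 8.11% of ribosomal protein genes called higher was under the background. The median log2 fold change was 0.32 over the 74 genes, with 72 above 0, against -0.07 over all genes and 0.06 over other genes under 1000 bases.

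Among the called genes were Rpl14 (0.63 ± 0.18, adjusted p = 0.0479), Rplp1 (0.59 ± 0.16, adjusted p = 0.041), Rpl27a (0.41 ± 0.11, adjusted p = 0.0389), Rpl28 (0.34 ± 0.09, adjusted p = 0.0296) and Rpl19 (0.33 ± 0.10, adjusted p = 0.0478, all limma). Rpl14 had 1289, 1644, 1619, 1709 and 1795 TPM in Eed(F/F) Rag1-cre, against 759, 1369 and 1215 TPM in Eed(F/+) Rag1-cre and 765 TPM without Cre. Rplp1 had 11102, 9474, 15884, 17598 and 15716 TPM in Eed(F/F) Rag1-cre, against 5498, 8356 and 10968 TPM in Eed(F/+) Rag1-cre and 6664 TPM without Cre. For both genes the mutant and control libraries overlapped only through replicate 1 or 2 of Eed(F/F) Rag1-cre and the highest Eed(F/+) Rag1-cre library. Of 6 paralogues tested 2 were called higher and 0 lower, where 12.6% of all genes were higher. They were Rpl22l1 (0.89), the paralogue of Rpl22, and Rps27l (0.87). Rpsa rose by 0.57, while 0 of 41 ribosome biogenesis genes (median 0.30) and 0 of 29 translation factors (median 0.24) passed in limma. An unadjusted p under 0.05 was found for 1 of these biogenesis genes and 5 of these translation factors.

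Replicate 1 of Eed(F/F) Rag1-cre and the control without Cre, the 2 libraries of 1 series, stood apart together. Rps15a had 231 TPM in that Eed(F/F) Rag1-cre library and 46.8 to 53.7 TPM in the other 4, against 195 TPM in the control without Cre and 44.4 to 61.0 TPM in Eed(F/+) Rag1-cre. Rps29 had 20066 TPM there and 6723 to 9325 TPM in the other 4, against 16267 TPM without Cre and 5752 to 7920 TPM in Eed(F/+) Rag1-cre. The calls rest on single libraries. None of the 74 genes passed without the control lacking Cre, without replicate 3 of Eed(F/+) Rag1-cre or without any 1 of the 5 Eed(F/F) Rag1-cre libraries. By contrast, 26 passed without replicate 1 and 39 without replicate 2 of Eed(F/+) Rag1-cre. The share of all genes called in each refit is not given, so these counts show only how far they move. In the Eed(F/F) Rag1-cre libraries pre-B and immature markers summed to 716 to 1388 TPM, against 365 to 882 TPM in Eed(F/+) Rag1-cre and 347 TPM without Cre, and 4 of the 7 tested were called higher. Pro-B markers summed to 9481 to 11588 TPM in Eed(F/F) Rag1-cre, against 10332 to 25023 TPM in Eed(F/+) Rag1-cre and 14330 TPM without Cre. Of 11 pro-B markers 3 were called lower and 0 higher (median -0.79), among them Dntt (-1.39) and Ebf1 (-1.14). Markers of pDC summed to 488 to 628 TPM in Eed(F/F) Rag1-cre, against 388 to 455 TPM in Eed(F/+) Rag1-cre and 405 TPM without Cre. Of the 3 tested 1 was called higher, Bst2 (1.33), and 1 lower, with a median of -0.19. The part of these markers was not tested.

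Some of these messengers were lower in pre-B than in pro-B cells of the same experiment, about as often as genes in general. The summed share was 8.78% and 8.86% in Wapl(+/+) pre-B cells, against 10.3% and 10.5% in Wapl(+/+) pro-B cells, a ratio of 0.849. Of the 74 genes 26 (35.1%) were lower and 1 higher (limma over 12465 genes). Over all genes 57.7% were called, 33.8% lower and 23.8% higher, so the share of lower ribosomal protein genes was close to the background and the share of higher ones below it. The median log2 fold change was -0.21 over the 74 genes, against -0.08 over all genes. Immunoglobulin rows took 3.07% ± 0.391 of TPM in pre-B cells and 0.513% ± 0.019 in pro-B cells, and the log2 ratio of the sum was -0.236 with them and -0.198 without them. With median-of-ratios scaling 16 of the genes were lower and 3 higher, counts that cannot be read against the shares of all genes in the main fit.

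Rps2, a small-subunit protein next to the messenger entry, changed most, with 162 and 212 TPM in wild-type pre-B cells, against 409 and 574 TPM in wild-type pro-B cells (a log2 fold change of -1.38 ± 0.22, adjusted p = 0.001, limma). Rpl14 had 536 and 436 TPM in pre-B cells, against 1041 and 920 TPM in pro-B cells (-1.01 ± 0.17, adjusted p = 0.00135, limma). Rps27a, translated as a fusion with ubiquitin, had 7.6 and 12.0 TPM in pre-B cells, against 16.9 and 17.6 TPM in pro-B cells (-0.78 ± 0.20, adjusted p = 0.0106, limma). None of these, picked for their large falls, overlapped between the stages. Rplp1 had 4845 and 4412 TPM in pre-B cells, against 8372 and 7120 TPM in pro-B cells (-0.74 ± 0.14, adjusted p = 0.0029, limma). Rpl27 fell by 0.71 (adjusted p = 0.000981, limma) and Rpl3 by 0.62 on the log2 scale (adjusted p = 0.0009, limma). All 3 P-stalk genes fell, as did Rps19 (-0.56), Rpl11 (-0.37) and, on the X chromosome, Rpl36a (-0.61) and Rpl39 (-0.42). Rps27 was the gene that rose, with 8.76 and 8.24 TPM in pre-B cells, against 5.24 and 5.71 TPM in pro-B cells (0.55 ± 0.12, adjusted p = 0.00533, limma). Several abundant genes did not pass: Rps14 had 3713 and 3682 TPM in pre-B cells, against 4003 and 3815 TPM in pro-B cells, and Rps9 had a log2 fold change of 0.12.

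**Figure D4:**
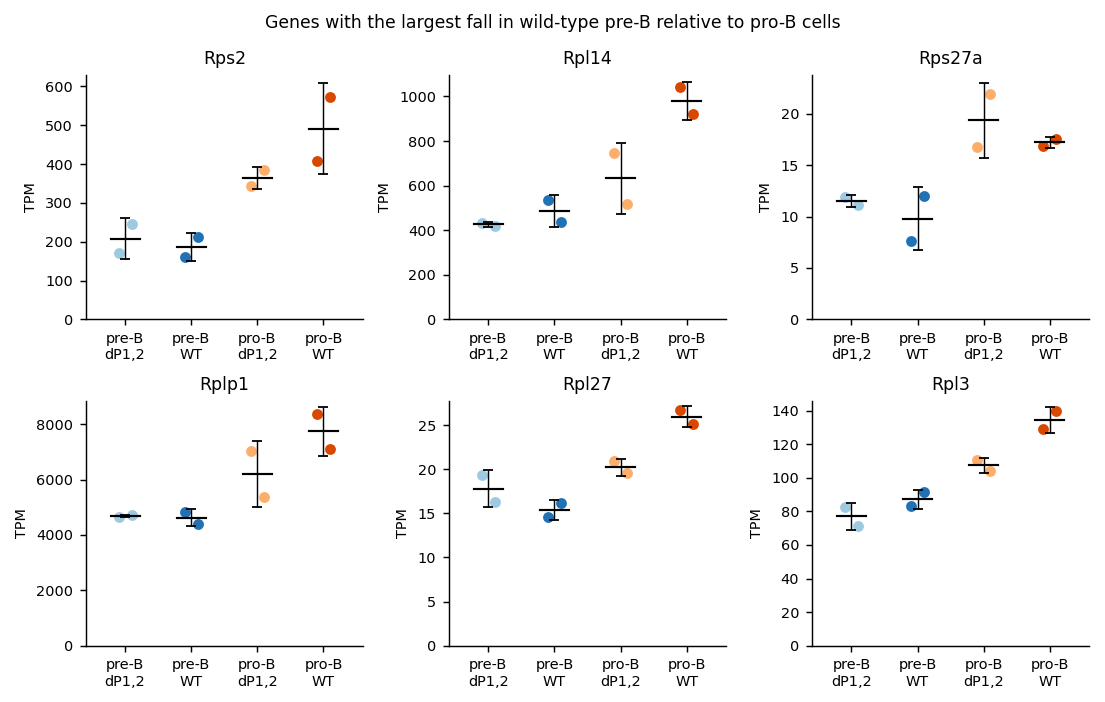
TPM (y axes from 0) of the 6 genes with the largest fall in wild-type pre-B relative to pro-B cells, in deltaP1,2 and wild-type (WT) pre-B cells and then in deltaP1,2 and wild-type pro-B cells (n = 2 each), with points for libraries, lines for means and bars for the SD. For Rps2 the pre-B libraries of both genotypes lie at 245 TPM or less and the pro-B libraries at 343 TPM or more.

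Genes of the machinery that builds ribosomes were lower in pre-B cells too, where 33.8% of all genes were lower. Of 41 ribosome biogenesis genes 34 were lower in pre-B cells and 0 higher, with a median of -0.78. They included Gnl3 (-1.97), the methyltransferase Fbl (-1.53) and Gar1 of the pseudouridylation complex (-1.51). Of 29 translation factors 15 were lower and 1 higher, with Npm1 at -1.26 and Eif5a at -1.06, and of 76 mitochondrial ribosomal protein genes 41 were lower and 2 higher. Myc averaged 6.10 ± 1.33 TPM in pre-B cells and 160 ± 5.86 TPM in pro-B cells (-4.51, adjusted p = 3.87e-07, limma). Among ribosomal proteins outside the rule, Rpsa fell (-0.68) and Fau, a fusion with a ubiquitin-like protein, rose (0.65). Of the paralogues, Rpl3l (-2.22), Rps27l (-0.79), Rpl22l1 (-0.41) and Rpl36al (-0.25) fell. These lists were compared by their counts and medians, and the difference between lists was not tested. Markers of pre-B and immature cells summed to 7106 and 8545 TPM in pre-B cells, against 614 and 678 TPM in pro-B cells, and erythroid markers to 546 and 626 TPM in pre-B cells, against 182 and 226 TPM in pro-B cells; their part was not tested. The count of called ribosomal protein genes fell when single libraries were left out, which leaves 1 library in a group. The log2 ratio of the sum then ran from -0.248 to -0.223.

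In sorted cells homozygous for Wapl deltaP1,2, few ribosomal protein genes differed from wild type. In pro-B cells the summed share was 9.87% and 9.29% in deltaP1,2 cells, against 10.3% and 10.5% in wild-type cells, a ratio of 0.922. Of the 74 genes 1 was higher and 3 were lower (limma), whereas 17.3% of all genes were called, 7.65% higher and 9.63% lower, so the counts among these genes were under the background. Rpl14 had 745 and 519 TPM in deltaP1,2 pro-B cells, against 1041 and 920 TPM in wild-type pro-B cells (a log2 fold change of -0.65 ± 0.17, adjusted p = 0.036, limma). Rpl11 had 1095 and 950 TPM in deltaP1,2 cells, against 1281 and 1436 TPM in wild-type cells (-0.41 ± 0.10, adjusted p = 0.03, limma). Rpl23, which contacts the small subunit and can bind Mdm2, had 1721 and 1472 TPM in deltaP1,2 cells, against 2101 and 2016 TPM in wild-type cells (-0.37 ± 0.10, adjusted p = 0.0408, limma). In the comparison of wild-type pre-B with pro-B cells, which shares the wild-type pro-B libraries, the log2 fold change was -1.01 for Rpl14, -0.37 for Rpl11 and -0.47 for Rpl23. Rpl35a, mutated in some human patients with Diamond-Blackfan anaemia, had 515 and 523 TPM in deltaP1,2 pro-B cells, against 408 and 446 TPM in wild-type pro-B cells (a log2 fold change of 0.28 ± 0.07, adjusted p = 0.0314, limma).

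In pre-B cells the summed share was 8.78% and 8.35% in deltaP1,2 cells, against 8.78% and 8.86% in wild-type cells. None of the 74 genes passed in limma, 4 had an unadjusted p under 0.05 (15.7% of all genes had), and 3.02% of all genes were called, 1.74% higher and 1.28% lower. Rpl35a had 417 and 397 TPM in deltaP1,2 pre-B cells, against 466 and 465 TPM in wild-type pre-B cells, the opposite order to that in pro-B cells. The difference between the 2 mutant effects, pre-B minus pro-B, was -0.48 ± 0.10 for Rpl35a (adjusted p = 0.0482, limma). It was the only 1 of the 74 genes called in that test, where 3.35% of all genes were called, 1.97% higher and 1.39% lower. Every reduction of this fit to 7 of the 8 libraries lost that call.

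Other genes of the pathway moved in deltaP1,2 pro-B cells, where 9.63% of all genes were lower and 7.65% higher. Of 41 ribosome biogenesis genes 20 were lower and 0 higher (median -0.38), among them Gar1 (-0.92), Lyar (-0.86) and Nolc1 (-0.80). Of 29 translation factors 9 were lower, with Npm1 at -0.72 and Eif5a at -0.68, and of 7 snoRNA hosts 4 were lower, with Snhg3 at -1.09. Myc averaged 65.4 ± 4.15 TPM in deltaP1,2 pro-B cells and 160 ± 5.86 TPM in wild-type pro-B cells (a log2 fold change of -1.28, adjusted p = 0.00117, limma), and Mtor rose by 0.58. In deltaP1,2 pre-B cells 0 genes of these 3 lists passed in limma, with an unadjusted p under 0.05 for 2 biogenesis genes, 1 translation factor and 3 snoRNA hosts. The difference between the stages passed for Myc (1.26), Gar1 (0.85), Tsr1 (0.82) and Nolc1 (0.73). Y-linked Eif2s3y was at 0 and 0 TPM in deltaP1,2 pro-B cells, against 5.75 and 17.1 TPM in wild-type pro-B cells, and Xist was at 49.0 and 62.8 TPM in deltaP1,2 pro-B cells, against 45.0 and 23.6 TPM in wild-type pro-B cells. Erythroid markers summed to 321 and 497 TPM in deltaP1,2 pro-B cells, against 182 and 226 TPM in wild-type pro-B cells, and pro-B markers to 15840 and 17530 TPM in deltaP1,2 pro-B cells, against 14268 and 14489 TPM in wild-type pro-B cells. Of 11 pro-B markers 5 were called higher and 1 lower, and of 8 pre-B and immature markers tested 1 was called higher and 4 lower (median -0.79). The part of sex or of these markers was not tested. The calls of ribosomal protein genes in pro-B cells changed when single libraries were left out, which leaves 1 library in a group. The log2 ratio of the sum then ran from -0.161 to -0.0729.

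Pro-B cells kept for 3 days in culture showed higher values of these genes in deltaP1,2 than in wild-type libraries, with wide spread. The summed share was 11.6%, 15.01% and 16.0% in deltaP1,2 cells, against 11.1% and 11.7% in wild-type cells, so the groups overlapped. The mean was 14.2% ± 2.30 in deltaP1,2 cells (SD, n = 3) and 11.4% ± 0.432 in wild-type cells (n = 2). Of the 74 genes 4 were higher and 0 lower (limma over 12457 genes). Over all genes 21.7% were called, 3.16% higher and 18.5% lower. With median-of-ratios scaling the shares higher and lower were 11.2% and 15.8%, and 4 of the 74 genes were higher, 2 of them among the first 4. The median log2 fold change was 0.31 over the 74 genes and -0.18 over all genes, with 70 of the 74 above 0. Rpl15 had 96.7, 92.3 and 97.7 TPM in deltaP1,2 cells, against 68.2 and 53.2 TPM in wild-type cells (0.66 ± 0.13, adjusted p = 0.0123, limma). Rps24 had 1539, 2325 and 2352 TPM in deltaP1,2 cells, against 1252 and 1317 TPM in wild-type cells (0.66 ± 0.19, adjusted p = 0.041, limma). Rpl7 (0.47 ± 0.12, adjusted p = 0.0314) and Rps7 (0.45 ± 0.14, adjusted p = 0.0477, limma) were the others. For all 4 genes the lowest deltaP1,2 library was above the highest wild-type library. They were picked by the test on these same values, so this adds no support.

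The cultured result turns on replicate 1 of the deltaP1,2 cells, whose summed share of 11.6% lay within the wild-type range. Without it 53 genes were higher, and without replicate 2 of the deltaP1,2 cells 1 was. The shares of all genes called in these refits are not given, so the counts show only how far they move. Translation factors (7 of 29 higher, with Npm1 at 0.72), snoRNA hosts (3 of 7 higher), ribosome biogenesis genes (4 of 41 higher) and mitochondrial ribosomal proteins (12 of 76 higher) had 0 lower, in a comparison where 3.16% of all genes were higher and 18.5% lower. Of 9 T-cell markers, 3 were at 1 TPM or more in every library of either group, and the list summed to 64.3 to 77.5 TPM in deltaP1,2 cells, against 146 to 188 TPM in wild-type cells. Eif2s3y was at 72.3, 71.4 and 0.194 TPM in deltaP1,2 cells, against 0.639 and 0.28 TPM in wild-type cells. The part of either in the result was not tested.

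No cytosolic ribosomal protein gene passed in any comparison of Igh alleles in immature B cells. The summed share was 9.80% and 9.25% in Igh(890-inv/+), against 9.24% and 9.22% in Igh(+/+). It was 7.36% and 7.29% in Igh(CBE-inv/+) and 7.09% and 7.08% in Igh(CBE/+), against 6.68% to 7.35% in the shared Igh(+/+) libraries. It was 9.70% and 9.94% in Igh(V8-8-inv/delta890) and 8.33% and 8.04% in Igh(V8-8/delta890), against 7.54% and 9.47% in Igh(+/delta890). Over all genes the share called was 0.544% in 890-inv (0.228% higher and 0.316% lower), 0.0834% in CBE-inv (0.00834% higher and 0.0751% lower) and 0.00834% in CBE (all of it higher). It was 0.219% in V8-8-inv (0.00841% higher and 0.21% lower) and 0.235% in V8-8 (0.0504% higher and 0.185% lower). In limma, 14 of the 74 genes had an unadjusted p under 0.05 in 890-inv, where 5.41% of all genes had. In CBE-inv 0 genes had (2.49% of all genes), in CBE 12 (2.45%), in V8-8-inv 18 (6.08%) and in V8-8 1 (1.85%). One of the genes nearest to the threshold, named after its values were seen, was Rps24 in 890-inv, with 1227 and 1160 TPM in Igh(890-inv/+), against 901 and 939 TPM in Igh(+/+) (0.37 ± 0.05, adjusted p = 0.0559, limma).

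The summed ratio in V8-8-inv depended on 1 control library. The median log2 fold change of the 74 genes was 0.19 there, against -0.11 over all genes, with 59 of the 74 above 0, and the 2 Igh(+/delta890) libraries differed from each other by more than the allele groups did. Without replicate 2 of Igh(+/delta890), which had the higher summed share, the log2 ratio of the sum was 0.381, against 0.207 with both control libraries. Myeloid markers summed to 1614 and 5441 TPM in Igh(V8-8-inv/delta890), against 1425 and 2818 TPM in Igh(+/delta890), and their part was not tested. With each library left out in turn, the log2 ratio of the sum ran from -0.211 to 0.118 in V8-8 and from 0.0032 to 0.0862 in 890-inv.

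**Figure D5:**
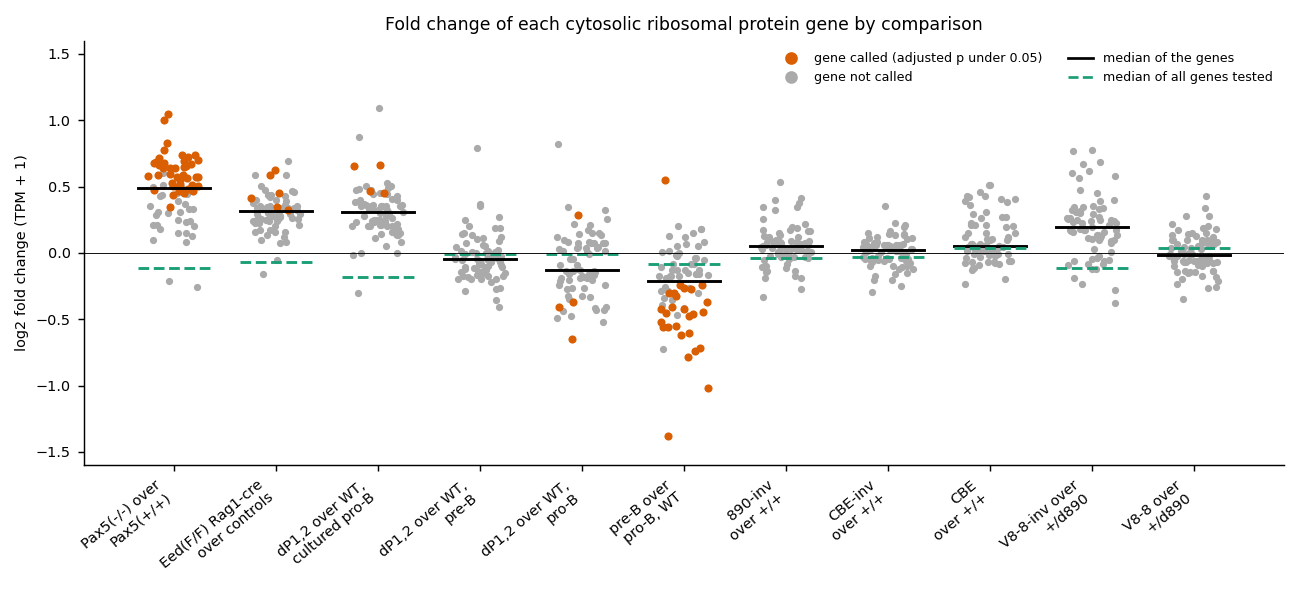
Log2 fold change on the log2(TPM + 1) scale of the 74 tested genes in each comparison, mutant over control and pre-B over pro-B cells, with genes passing the test in orange, the median of the 74 genes as a solid line and the median of all genes tested as a dashed line. In Pax5(-/-) progenitors 42 genes were called (36.9% of all genes were) and between wild-type pre-B and pro-B cells 27 (57.7% of all genes were), while the Igh comparisons have no called gene; dP1,2 stands for deltaP1,2 and d890 for delta890.

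Values of single genes with known roles can be followed over the stages in the sorted libraries. Rplp0 was at 2592 and 2360 TPM in Wapl(+/+) pro-B cells, 1884 and 1760 TPM in Wapl(+/+) pre-B cells and 1020 to 1974 TPM in the control immature B cells. Rpl3 was at 129 and 140 TPM in the pro-B cells, 83.1 and 91.3 TPM in the pre-B cells and 41.4 to 74.4 TPM in the control immature B cells. The 3 stages did not overlap for Rpl3, while for Rplp0 an Igh(+/delta890) library at 1974 TPM lay above both pre-B libraries. Rps4x, by contrast, was at 776 and 930 TPM in pro-B cells, 631 and 925 TPM in pre-B cells and 735 to 1405 TPM in control immature B cells, and the stages overlapped. The immature cells belong to other experiments, so these levels are a description. The paralogue Rpl3l was at 19.2 and 21.1 TPM in Wapl(+/+) pro-B cells, 2.82 and 4.40 TPM in Wapl(+/+) pre-B cells and under 1 TPM in all immature B cell libraries. The paralogue Rps27rt was listed at 0 in every library.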

How the data were processed

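Messenger RNA levels of the cytosolic ribosomal protein genes were taken from 44 RNA libraries in 19 groups, assigned from the titles and labels. The deposited values are TPM (length-scaled transcript abundances) per gene, computed by the authors. In 11 tables the header is only a library number, and these were deposited as a signal with no unit named; since they too sum to 1000000 they were treated as TPM. Totals lay between 999999 and 1000001, so no depth is kept and precision rests on the number of libraries. The submitters' processing notes name mm9, mm10, cutadapt 1.16, Bowtie2 2.1.0 and featureCounts 1.5.0 for the series, with no roles, and the labels do not state the aligner, read length or gene models of the RNA tables. The suffix on 13 of the 75 symbols (such as _IMP_OVL) was removed by the rule, and the labels do not say what it means for the counting of those rows.

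Values were tested as log2(TPM + 1) with limma 3.58.1 in R 4.3.3 (trended prior, two-sided, Benjamini-Hochberg over all genes tested, threshold 0.05), after leaving out genes that reached 1 TPM in fewer libraries than the smaller group has. Such fold changes understate the change of low genes. The 4 sorted Wapl groups, the 3 CBE groups and the 3 V8-8 groups were each fitted together, and the Eed fit held the library series as a term. The fit was tested on simulated data. Coding windows of 50 bases were searched in NCBIM37, and start sites were read from RefSeq (GRCm38.p6). Sums are described with no test. Tables were made with Python 3.11.15 and pandas 2.3.3. Named genes were the 5 highest, 5 lowest and 5 most variable members, up to 6 called members per comparison and direction, the X-linked members, and Rplp0, Rpl3, Rpl5, Rpl11, Rpl22, Rps6, Rps14 and Rps19; of the other lists, up to 3 called genes per direction. Values of 2 genes that met these rules are not reported here. The members, gene lists and tests were chosen with earlier results of these data known. Alternatives were a pseudocount of 0.1, no filter, median-of-ratios scaling, no immunoglobulin rows, other samples in the fit and each library left out.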

Additional observations from a re-analysis of the deposited data

Results flagged for a closer look

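The Eed(F/F) Rag1-cre group, with 5 libraries, was the one large enough to look for a library lying far from the others relative to the group's range. Of 41 sets of values of this group 13 had one. The sets are values of the same 5 libraries, so they do not count as 41 separate tests, and the chance rate of about 1 in 20 for a single set is no measure for them. Replicate 1 is also the one library of this group in its library series. In 12 of them replicate 1 was the high library, with 20066 TPM for Rps29, 4253 TPM for Rpl23, 899 TPM for Rpl39, 704 TPM for Rps7, 231 TPM for Rps15a, 185 TPM for Rpl27a, 134 TPM for Rpl10a, 120 TPM for Rps27a, 96.6 TPM for Rpl27, 76.9 TPM for Rps23, 6.04 TPM for Rpl5 and 0.166 TPM for Rpl26. The other 4 libraries lay between 5.63 and 11.4 TPM for Rps23 and between 15.2 and 25.5 TPM for Rps27a. The control without Cre, of the same library series, was also high, with 52.9 TPM for Rps23, 57.3 TPM for Rps27a and 16267 TPM for Rps29. The last was Rpl28, with replicate 2 low at 806 TPM, and the other 4 libraries between 1209 and 1329 TPM.

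The effect of the Wapl deletion on Rpl35a differed between the stages by -0.48 on the log2 scale (pre-B minus pro-B, adjusted p = 0.0482, limma). It was 0.28 in pro-B cells and -0.20 in pre-B cells, and the mutant libraries lay above both wild-type libraries in pro-B cells and below both in pre-B cells. The call was lost when any 1 of the 8 libraries was left out, with median-of-ratios scaling, with a pseudocount of 0.1 and without the filter on low values.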

How the results depend on the processing

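No paired analysis was possible because the replicate numbers follow the order of the samples and the labels tie no library of one group to a library of another. Without a filter on low values, 1 ribosomal protein gene passed in deltaP1,2 pro-B cells (4 with the filter), 1 in cultured cells (4), 24 in Pax5(-/-) progenitors (42), 2 in Eed(F/F) Rag1-cre (6) and 0 in the difference between stages of the Wapl effect (1), with more genes tested. With median-of-ratios scaling 2 passed in deltaP1,2 pro-B cells and 0 in that difference, which was also 0 with a pseudocount of 0.1. That scaling moved the median of all genes by over 0.1, to 0.01 in cultured cells (members 0.51), -0.01 in Pax5(-/-) progenitors (0.60) and 0.00 in V8-8-inv (0.32). In the Eed comparison 1 gene passed without the series term and 0 against Eed(F/+) Rag1-cre alone. The cause was not tested, and no share of all genes called is given for the counts in this paragraph. The summed log2 ratio of pre-B to pro-B cells was -0.198 without immunoglobulin rows, -0.221 with 5 more genes and -0.187 as the median over members.

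With each library left out in turn, the count of genes called ran from 0 to 6 in deltaP1,2 pro-B cells, 0 to 1 in deltaP1,2 pre-B cells, 14 to 21 between stages, 0 to 0 in the difference of effects, 0 to 53 in cultured cells, 4 to 49 in Pax5(-/-) progenitors, 0 to 39 in Eed(F/F) Rag1-cre, 0 to 1 in 890-inv, 0 to 1 in V8-8 and 0 to 31 in V8-8-inv. Where this left 1 library in a group, it was assumed to vary like the others. The shares of all genes called in these refits are not given, so the counts cannot be set against them. The 1 gene of the pre-B comparison, lower, came without replicate 1 of the deltaP1,2 cells. The summed log2 ratio ran from 0.0032 to 0.0862 in 890-inv, -0.211 to 0.118 in V8-8 and 0.0523 to 0.381 in V8-8-inv. Over genes with under 80% of their windows elsewhere, an alternative chosen after seeing the data, it was 0.578 in Pax5(-/-) progenitors (0.547 over all members), 0.397 in Eed(F/F) Rag1-cre (0.344), 0.302 in cultured cells (0.320) and -0.235 between stages (-0.236). Of 291 values of 28 named gene and comparison pairs under the alternatives, 169 kept the call, 122 lost it and 0 changed sign. All 28 pairs were picked as calls of the main fit on these same values, so the 0 changes of sign add no support. TPM keep no depth, so small differences of low genes could not be weighed by counts.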
